A study of Mus musculus with 2 samples.

Results

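The Rag1/Rag2 locus was examined for binding of CTCF in mouse thymocytes. Its members are the CTCF-bound regions whose midpoint lies between 101.3 and 101.65 Mb of chromosome 2 in the mm9 build, a window of 350 kb that holds both genes with the flanks where distal control elements lie. The window held 23 of the 51660 regions listed on the autosomes and the X. The authors listed peaks as pieces of 25 bp, and a region is a run of such pieces joined at a gap of 0 bp.

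The chromatin came from CD4+CD8+ (double-positive, DP) thymocytes of C57BL/6 mice aged 4 to 8 weeks. An anti-CTCF library and an input DNA library are named in the labels, and both share the genotype Rag1 -/- with an already rearranged TCRbeta transgene. Which Rag1 allele the mice carried, what drives the transgene and whether mice were pooled are not stated in the labels. The CTCF library was analysed, the input library was not analysed here, and with 1 library every value below is a description without a replicate.

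RAG1 and RAG2 form the recombinase that cuts antigen receptor gene segments at their recombination signals. RAG1 carries the catalytic site, and RAG2 is its obligate partner, which binds histone H3 methylated at lysine 4 through a PHD finger. The genes are neighbours, are switched on together in developing lymphocytes, and in T lineage cells depend on distal enhancers and an anti-silencer on the Rag2 side. CTCF is a zinc-finger protein that, with cohesin, anchors chromatin loops and can separate enhancers from genes. Thymocytes without RAG1 cannot assemble their own receptor genes, and a rearranged beta chain transgene carries them to the double-positive stage.

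In the RefSeq gene table, of the GRCm38 build, the order from low to high coordinates is Api5, Lrrc4c, Iftap, Rag2, Rag1, Traf6, Prr5l and Commd9. Iftap encodes a protein associated with intraflagellar transport, Traf6 a ubiquitin ligase of Toll-like and interleukin receptor signalling, and Prr5l a protein bound to the mTORC2 kinase complex. Lrrc4c encodes a synaptic ligand of netrin-G. The promoters of Rag2 and Rag1 lie on opposite strands, and the genes point towards each other. An annotation of mm9 was not used here, so no region was assigned to an exon, intron or promoter, and GRCm38 positions cannot be laid against the positions of the regions.

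The promoters of the pair are shown because they are the sequences at this locus that can be read without mm9. Each is the 250 bases before the gene's start, 5′ to 3′ on the gene's strand, from RefSeq (GRCm38.p6, Rag1 at chr2:101649533-101649782 on the minus strand and Rag2 at chr2:101624462-101624711 on the plus strand). Capitals mark CCCTC, the short sequence CTCF is named after, on either strand.
Rag1: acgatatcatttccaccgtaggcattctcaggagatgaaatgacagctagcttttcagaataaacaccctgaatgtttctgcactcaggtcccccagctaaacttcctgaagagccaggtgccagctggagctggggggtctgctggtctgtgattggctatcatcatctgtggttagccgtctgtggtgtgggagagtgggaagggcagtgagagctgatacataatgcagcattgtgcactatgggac
Rag2: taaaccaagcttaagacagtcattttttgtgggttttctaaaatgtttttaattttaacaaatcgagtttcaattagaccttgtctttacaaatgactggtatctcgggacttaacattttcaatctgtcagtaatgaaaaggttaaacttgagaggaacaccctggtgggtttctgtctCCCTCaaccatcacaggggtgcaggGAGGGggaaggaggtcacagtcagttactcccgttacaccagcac

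The Rag2 stretch held CCCTC 2 times, once on each strand, and the Rag1 stretch 0 times. A sequence this short is common: 60.5% of all 32851 promoters held it in the same 250 bases, and 30.2% held it at least 2 times. The CTCF core consensus, searched as 12 bases of which 4 were left free, was found on neither strand of either stretch, and 2.07% of all promoters held it. A stricter form with all 12 bases fixed, which is contained in the first, was also in neither, and 0.1% of all promoters held it. Over the whole listed promoters, which run a little past the start, the core was in 0 of 11 promoters of these 8 genes, against 2.43% of all. A missing match says only that these letters are not in these stretches.

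The Rag1/Rag2 window was rich in CTCF regions, and the flank outside its low-coordinate edge was poor in them. Its density was 65.7 regions per Mb, with a 95% Poisson interval of 41.7 to 98.6, where the genome held 19.6 and chromosome 2 held 22.1. Of the window, 2.96% lay in regions, against 0.865% of the genome. The interval covers counting error only and takes regions as independent. When the genome was cut into 7523 tiles of the same length, the median tile held 4 regions and 28.4% held none. Stretches of unknown sequence were left out neither of the tiles nor of the genome length used for its density and covered share. Tiles with 23 or more regions made up 5.9%, or 444 tiles, and 5.66% had as many covered bases (10.35 kb) or more. The window thus stood in the upper tail without being rare. Its bounds were laid around the locus, whereas tiles fall anywhere: the 2 fixed tiles that overlap it held 17 and 12 regions.

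**Figure D1:**
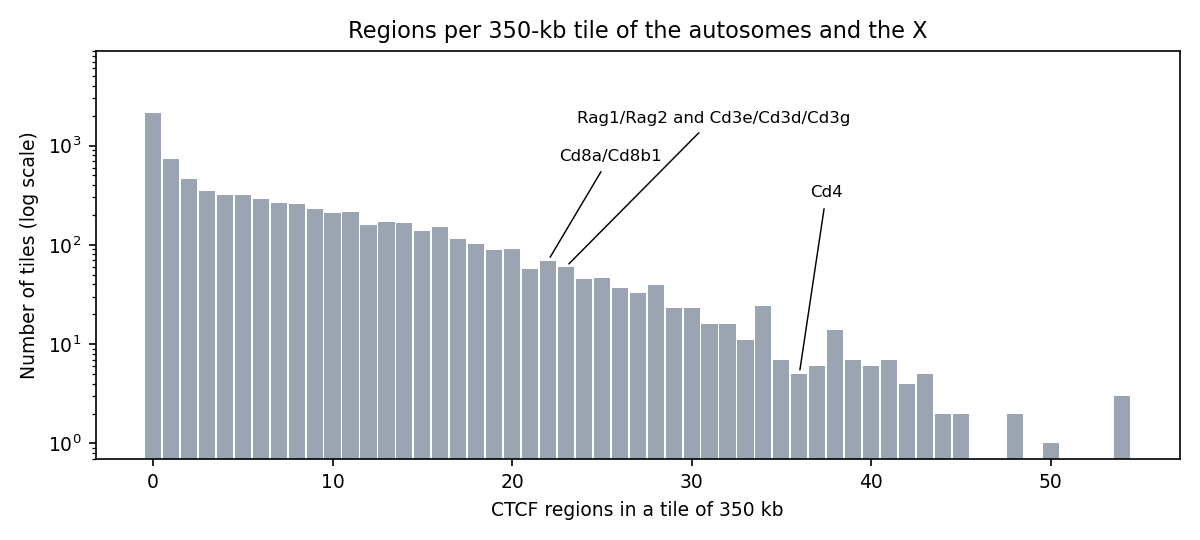
Number of 350-kb tiles of the autosomes and the X (log scale) by how many CTCF regions they hold. Lines mark the windows of Rag1/Rag2 and Cd3e/Cd3d/Cd3g at 23 regions, of Cd8a/Cd8b1 at 22 and of Cd4 at 36, all to the right of the median tile at 4.

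From low to high coordinates, the regions fell into 4 sets when a gap of over 25 kb was taken to separate them, with 3, 4, 15 and 1 members. The limit of 25 kb was chosen after the positions were seen.

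The first set began with a region of 700 bp (chr2:101312749-101313448). A region of 300 bp followed after 200 bp (chr2:101313649-101313948). The third, of 450 bp, stood 17.7 kb further on (chr2:101331624-101332073). This edge of the window thus carried a close pair and a single region, and 7.87% of all regions of the genome were as wide as the first or wider.

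The second set held the widest region of the window, 850 bp (chr2:101365799-101366648). Of all regions of the genome, 2.73% were at least that wide. After 17.05 kb came another region of 700 bp (chr2:101383699-101384398). The set ended in 2 regions of similar width, 400 and 425 bp, with 650 bp between them (chr2:101391474-101391873 and chr2:101392524-101392948). Of the 4 regions of at least 700 bp in the window, 3 lay in these first 2 sets. A stretch of 44.35 kb without a region followed.

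The third set was the largest, with 15 regions in 119.0 kb (chr2:101437299-101556298), or 126.1 per Mb. It is called the core here for its number of regions only, and whether it holds Rag1 or Rag2 was not determined. It opened with a region of 475 bp (chr2:101437299-101437773). Next came a region of 225 bp (chr2:101440824-101441048) and, 25 bp beyond it, 1 of 25 bp (chr2:101441074-101441098). This pair was split by 1 missing window, the smallest gap that the file can show.

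Further regions measured 600 bp (chr2:101448499-101449098) and 325 bp (chr2:101458199-101458523). The sixth was a single window of 25 bp (chr2:101465049-101465073), and its nearest neighbour was 6.525 kb away. Such a lone short region was not the usual case. Of the 7300 regions of at most 75 bp in the genome, 24.5% lay over 5 kb from any other and 59.5% had a neighbour within 200 bp.

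After it came 20.85 kb without a region (chr2:101465074-101485923), the longest gap inside the core. Gaps of at least this length were common, at 38.5% of all gaps in the genome. With a limit of 20 kb this gap cut the core, and its high-coordinate piece then held 9 regions in 70.4 kb. Which of the regions around it lie within Rag1 or Rag2 was not determined here.

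The 9 regions beyond that gap opened with 1 of 400 bp (chr2:101485924-101486323). A tight group of 3 stood next, at 125, 675 and 300 bp, within chr2:101492674-101495523. Its first 2 were 100 bp apart, and the third came after 1.65 kb. No other member of at least 525 bp had a neighbour as near as 100 bp.

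The last regions of the core were spread more evenly, 9.1 to 15.0 kb apart. They measured 725 bp (chr2:101505274-101505998), 675 bp (chr2:101518149-101518823) and 450 bp (chr2:101533824-101534273). A region of 225 bp (chr2:101546324-101546548) and 1 of 650 bp (chr2:101555649-101556298) closed the set. All 3 regions over 650 bp in the core lay beyond the gap of 20.85 kb, and 1 region of 600 bp was the widest before it.

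The fourth set was a single region of 625 bp (chr2:101636574-101637198), the most frequent kind of width in the library. It was set off by the longest gap of the window, 80.3 kb (chr2:101556299-101636573), and 11.1% of all gaps were as long or longer. The next region above the window, of 600 bp, lay 18.4 kb further on (chr2:101655599-101656198), so the upper bound of the window cut through a sequence of regions that goes on.

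**Figure D2:**
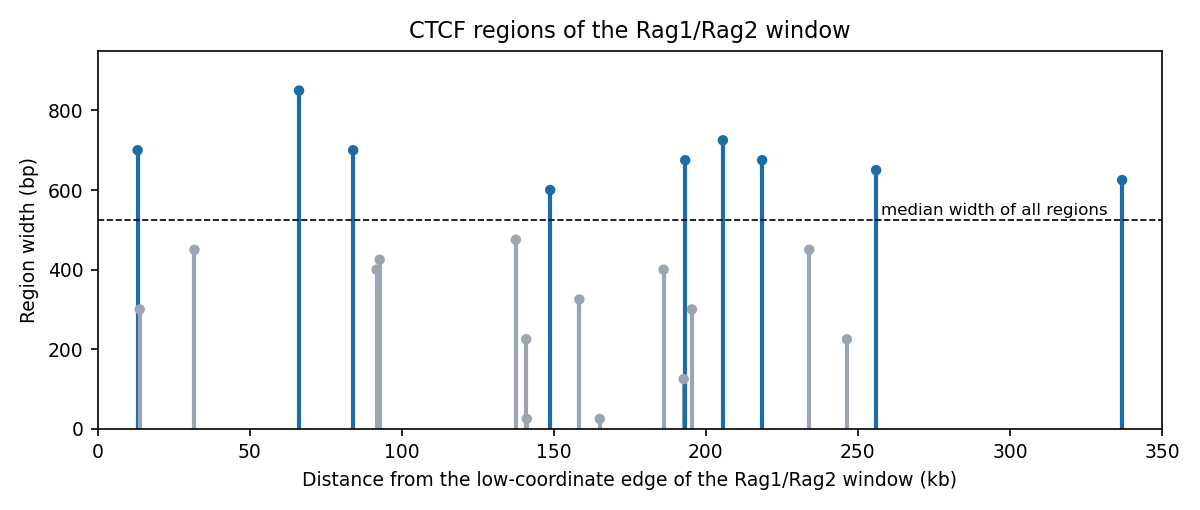
Width of each of the 23 regions in bp against its distance in kb from the low-coordinate edge of the window, in blue for the 9 regions of at least the genome's median width (dashed line, 525 bp) and grey for the others. The 15 regions of the core stand between 137.5 and 256.0 kb, and the last region stands alone at 336.9 kb.

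The 7 parts of 50 kb from low to high coordinates held 3, 4, 4, 6, 4, 1 and 1 regions. The middle part was the fullest, and the 2 parts at the high-coordinate end were the emptiest. Of 17576 runs in the genome with gaps of at most 25 kb, 1.64% held 15 or more regions. The median run held 2, and the share of all regions that lie in runs this large was not counted. The core was also picked as the largest of the 4 runs in the window. With a limit of 30 or 40 kb the same 15 regions formed the run, and 2.68% or 5.13% of runs were at least as large. With 15 or 20 kb the largest run held 9 regions, and 1.73% or 3.52% of runs were at least as large. The median distance between neighbouring members was 9.1 kb, and the quartiles were 3.875 and 16.5 kb. Over all regions the median was 13.1 kb, and the quartiles were 3.325 and 36.7 kb. The lower quartiles were thus close, and the median and upper quartile were shorter among the members than over all regions. The member distances are the 22 gaps inside the window, so none can exceed 350 kb. The gaps of 182.9 kb below the first member and 18.4 kb above the last were left out. Gaps over all regions had no such limit and reached 14166 kb. How much this cut shortens the member values was not tested. Among regions of at least 525 bp the order was the opposite, with a median distance of 40.3 kb between members and 26.4 kb over all such regions. Of the members, 26.1% had a neighbour within 200 bp, against 18.0% of all regions, and 39.1% had 1 within 2 kb, against 34.6%. Within 5 kb the order turned, at 43.5% of members against 50.1% of all regions.

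In width the members were a mixed set, with a lower median than the library but higher quartiles. The file gives no height or read count, so the width is the single value per region. Its median was 450 bp, against 525 bp over all regions, and the 95% binomial interval of the median, 300 to 650 bp, contained the latter. The quartiles were 300 and 662.5 bp, against 225 and 625 bp over all regions. At least 525 bp was reached by 9 of 23 members (39.1%), against 51.8% of all regions. Between 575 and 675 bp, the range of the main mode, lay 5 members (21.7%), against 35.3%. The shortest class was not over-represented either: 2 members (8.7%) were at most 75 bp wide, against 14.1%. In between, 12 members (52.2%) were over 75 bp and under 525 bp wide, from 125 to 475 bp, against 34.1% of all regions. With 23 regions these shares are imprecise, and no test was made.

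**Figure D3:**
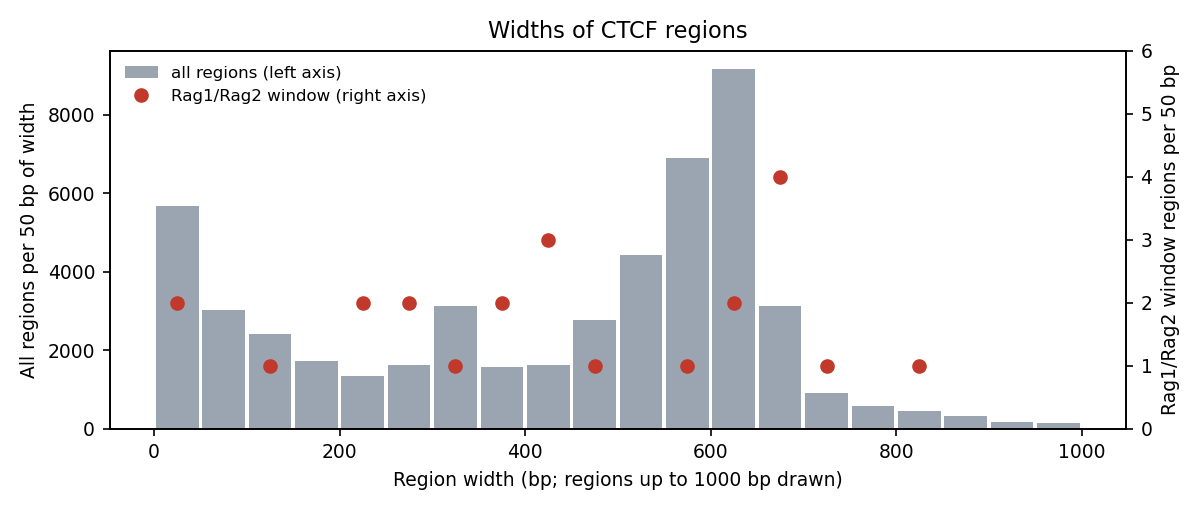
Number of regions per 50 bp of width, for all regions of the library (grey bars, left axis) and for the 23 regions of the Rag1/Rag2 window (red points, right axis, classes with none not drawn). The library peaks at 600 to 650 bp, while the members are spread from 25 to 850 bp.

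The window stood at the border of a long stretch with almost no CTCF regions. In the 3.15 Mb directly below the window, 3 regions were listed (0.95 per Mb). In the 3.15 Mb directly above, 102 were listed (32.4 per Mb). Cut into 9 windows of 350 kb, the lower side held 1 and 2 regions in 2 of them and 0 in the other 7. The first window above held 19. The change from sparse to dense therefore fell near the low-coordinate bound that was set for the window. In the RefSeq gene order this is the side of Rag2, Iftap and Lrrc4c, which was not checked in mm9. How far the change lies from Rag1 or Rag2 was not determined.

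The regions of the sparse side were few enough to list. The nearest to the locus was 625 bp wide (chr2:101129199-101129823) and 182.9 kb below the first member. The next was 150 bp wide (chr2:100999524-100999673). Below it came 1.92 Mb without a region, the sixth longest gap of chromosome 2, then a region of 325 bp (chr2:99077024-99077348) and a further gap of 1.77 Mb. The nearest region was thus of full width, and the other 2 were narrower than the median of the library.

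Few of the equally dense tiles of the fixed grid had such a border. Both limits used here, 23 regions inside and 3 beside, are the values of the Rag1/Rag2 window itself. They were set after the sparse side was seen, so the shares are descriptions only. Among the 444 tiles with 23 or more regions, 4 (0.901%) had 3 or fewer regions in the 3.15 Mb on one of their sides, and the median of the emptier side was 101. Among all tiles 12.7% had a side that empty. The share was 1.8% (8 tiles) with 1.05 Mb on each side (2 or fewer regions) and 0.676% (3 tiles) with 4.2 Mb (4 or fewer). It was 0.226% (1 tile) with tiles that start in the middle of the original ones. None of the tiles counted overlaps the Rag1/Rag2 window, where the 2 unshifted tiles held fewer than 23 regions. Whether reads can be placed uniquely across the sparse stretch was not tested, and a position that is not listed does not show that CTCF is absent.

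**Figure D4:**
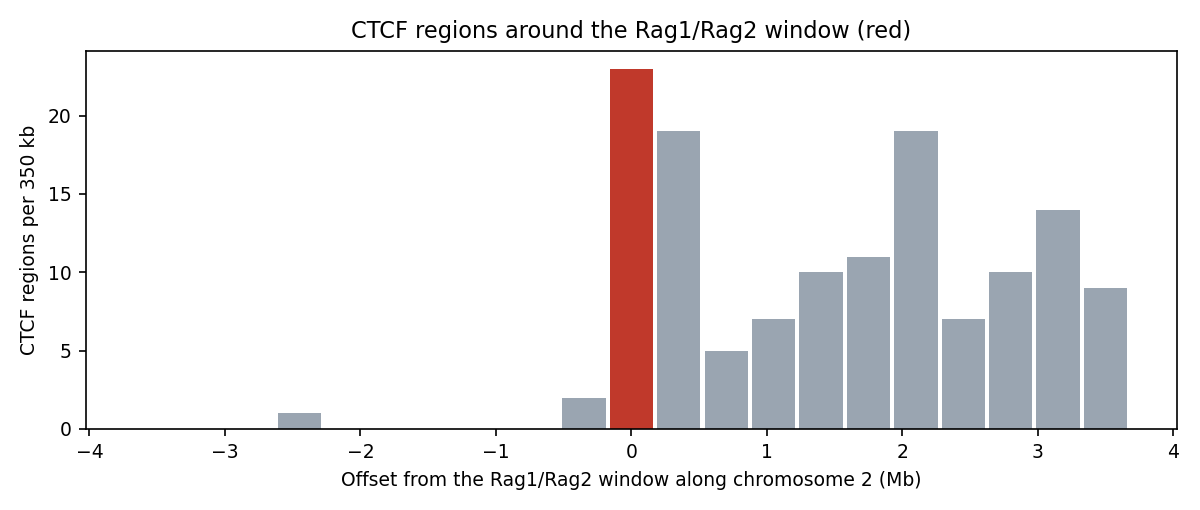
CTCF regions per 350 kb along chromosome 2, in windows laid end to end from the Rag1/Rag2 window (red, 23 regions) and placed by their offset in Mb. The windows at negative offsets hold 0 to 2 regions each, and those at positive offsets hold 5 to 19.

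Of 3 other loci used by double-positive thymocytes, 2 held nearly the same number of CTCF regions as Rag1/Rag2 and Cd4 held more. Windows of 350 kb around Cd4 and around Cd8a and Cd8b1, the co-receptor genes, held 36 and 22 regions, and the window around Cd3e, Cd3d and Cd3g, genes of T cell receptor signalling chains, held 23. The Poisson interval of the Rag1/Rag2 count, 14.6 to 34.5, overlapped that of Cd4 (25.2 to 49.8), Cd8a/Cd8b1 (13.8 to 33.3) and Cd3e/Cd3d/Cd3g (14.6 to 34.5). Overlap does not show that counts are equal, and the intervals take regions as independent. Tiles with at least as many regions made up 5.9% for Rag1/Rag2 and for Cd3e/Cd3d/Cd3g, 6.82% for Cd8a/Cd8b1 and 0.851% for Cd4. Covered bases were 10.35 kb at Rag1/Rag2, 16.3 kb at Cd4, 9.3 kb at Cd8a/Cd8b1 and 10.2 kb at Cd3e/Cd3d/Cd3g. The makeup of these sums differed in value: Rag1/Rag2 had the lowest share of regions of at least 525 bp, 9 of 23 against 11 of 22 at Cd8a/Cd8b1, 19 of 36 at Cd4 and 13 of 23 at Cd3e/Cd3d/Cd3g, and the lowest share of at most 75 bp, 8.7% against 17.4% to 22.7%. It also had the longest internal gap, 80.3 kb against 34.2 to 52.3 kb. The median distance was also the longest of the 4 windows, with 9.1 kb at Rag1/Rag2, against 5.625 kb at Cd4, 2.825 kb at Cd8a/Cd8b1 and 8.45 kb at Cd3e/Cd3d/Cd3g. Of all tiles, 13.8% held 9 or more regions of at least 525 bp. These differences come from 1 library and were not tested.

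The mice lack a functional Rag1 allele, which lies within the window examined. Reads from any sequence that the altered allele lacks cannot occur, and reads from inserted sequence have no place in mm9. The part of either in the regions of the window was not tested.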

How the data were processed

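CTCF binding was measured by ChIP-seq in thymocytes fixed with 1% formaldehyde for 10 minutes. Per the submitters' processing notes, Bowtie was the aligner and mm9 the build. Its version, how peaks were called and whether the input entered are not stated there. The authors deposited 912174 windows of 25 bp in peaks, as chromosome, start and end without height, so the depth is unknown. Starts were read as counted from 0, and positions are printed counted from 1. The single mitochondrial region was left out.

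Regions were counted by midpoint. Full tiles of 350 kb were laid from base 1 of each chromosome to its last listed position. Joining and counting were tested on simulated data, in which no gap was as short as 25 bp. Poisson and binomial intervals are at 95%. Of the named genes (Rag1, Rag2 and up to 3 protein-coding neighbours on each side), all 8 matched the RefSeq tables. The members, the 3 other loci (rounded mm9 bounds from general knowledge) and the alternatives were chosen with earlier results of these data known. The thymocyte label was not checked, since CTCF positions do not measure expression. The planned motif search in regions needs an mm9 genome and was not run. Computation used pandas 2.3.3 and NumPy 2.4.6 under Python 3.11.15, with SciPy 1.17.1 for intervals and matplotlib 3.10.9 for plots.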

Additional observations from a re-analysis of the deposited data

How the results depend on the processing

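The number of regions in the Rag1/Rag2 window was 19 to 23 when regions up to 1000 bp apart were joined, when regions of at most 75 bp were left out, or when any overlap placed a region in the window. Among regions of at least 525 bp it was 9, with 6200 bases covered, a median width of 675 bp, a median distance of 40.3 kb (26.4 kb over all such regions) and 13.8% of tiles at least as full. The counts fall here by construction, and for the tile share and the distance the cause was not tested. In the narrower window (101.4 to 101.55 Mb) it was 14 in 150 kb (93.3 per Mb), with 5250 bases covered and 2.64% of tiles of that length at least as full. The share of tiles at least as full was 4.79% without regions of at most 75 bp, 7.14% on chromosome 2 alone and 8.24% among tiles that held a region. It was 5.69% to 6.11% in the other settings. The median distance, recomputed in 5 of these settings (the 3 joining limits and both width limits), was below that of all regions in 4 and exceeded it when only regions of 525 bp or more were kept. No analysis paired across replicates was possible because there was 1 CTCF library, and that library was not set against the input. The settings for distances, runs and the sparse side were chosen after seeing the data. Without depth or heights, weak binding cannot be told from no binding.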
